A study of Homo sapiens with 6 samples.

Results

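Glycolysis was followed here through 10 of its genes in U2OS, an established human osteosarcoma cell line. The members were the rows whose gene name was HK1, HK2, PFKP, ALDOA, GAPDH, PGK1, PGAM1, ENO1, PKM or LDHA, in 2 deposited tables of FPKM (fragments per length of transcript, relative to the fragments of the whole library). All 10 had a row in both tables, out of 15167 genes in the first table, 16824 in the second and 14270 in both. The labels describe 6 RNA samples in 4 groups. There was 1 input sample from shNC cells, the control, whose genotype is given as WT, and 1 input sample from shDNMT1 cells, in which DNMT1, which copies DNA cytosine methylation onto newly made strands, was knocked down. From each kind of cell there were also 2 samples of RNA pulled down with mutant NSun2, a cytosine methyltransferase acting on RNA. The treatment field, which is the same for all 6 samples, has the NSun2 mutant introduced by plasmid into shDNMT1 cells and into cells called U6, and it does not say whether U6 is another name for shNC.

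The header of each table named a gene, a locus and an FPKM column, and no sample, so the tables could not be tied to a group and are called first and second only by their number. Every value below is therefore a single number per gene and table: there are no replicates, so no SD or test could be given. Neither the knockdown with its control nor the immunoprecipitate with its input was compared. A table may hold input RNA or pulled-down RNA, so a level given here need not be the abundance of the RNA in the cells. DNMT1 was at 23.3 and 9.36 FPKM and NSUN2 at 559 and 1147 FPKM, and these levels were not used to assign a label. Of 10 mesenchymal and bone markers 5 and 7 were listed. The mesenchymal filament VIM was at 262 and 407 FPKM, FN1 at 4.84 and 11.7 FPKM and CDH2 at 7.41 and 16.2 FPKM. The alkaline phosphatase ALPL was at 78.4 and 38.0 FPKM and COL1A1 at 3.04 and 0.451 FPKM. RUNX2 and BGLAP were listed only in the second table, at 0.806 and 0.144 FPKM. COL1A2, SPP1 and SP7, which mark matrix-producing bone cells, were listed in neither table. The epithelial markers EPCAM, CDH1 and KRT19 summed to 10.8 and 0.946 FPKM, and the leukocyte and endothelial markers to at most 0.823 FPKM in either table.

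Glycolysis turns glucose into pyruvate in the cytosol. Hexokinase traps glucose as its phosphate, phosphofructokinase commits it to the pathway, and aldolase splits the sugar into a pair of three-carbon units. Glyceraldehyde-3-phosphate dehydrogenase, phosphoglycerate kinase, phosphoglycerate mutase, enolase and pyruvate kinase then harvest ATP and NADH, and lactate dehydrogenase turns pyruvate into lactate. Many tumour cells, osteosarcoma lines among them, run this route to lactate even with oxygen present. Hypoxia-inducible factors are known to bind promoters or enhancers of several of these genes through the core letters ACGTG or GCGTG.

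Promoter windows from RefSeq (GRCh38.p14) reach from 250 bases before to 50 after an annotated start. All 10 members were matched, with 23 windows. Of the members at the ends of the range of ratios between the tables, the outermost 5′ window is printed so that the letters near an annotated start can be seen. Capitals mark ACGTG and GCGTG on either strand, so that the reverse strand reads CACGT and CACGC. PGK1 and LDHA had the highest ratios of second to first table, and ALDOA and PFKP the lowest. For PFKP the RefSeq gene starts at 3067548, before its printed window, so that window shows a later annotated start. The PGK1 window lies at chrX:78103998-78104297 (plus strand), that of LDHA at chr11:18394313-18394612 (plus strand), that of ALDOA at chr16:30064029-30064328 (plus strand) and that of PFKP at chr10:3067720-3068019 (plus strand).
PGK1: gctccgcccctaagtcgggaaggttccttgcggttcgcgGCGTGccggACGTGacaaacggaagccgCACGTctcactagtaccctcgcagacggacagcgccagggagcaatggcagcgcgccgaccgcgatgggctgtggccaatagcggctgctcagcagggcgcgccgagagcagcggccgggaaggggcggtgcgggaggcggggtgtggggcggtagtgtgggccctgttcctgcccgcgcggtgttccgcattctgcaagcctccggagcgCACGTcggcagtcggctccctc
LDHA: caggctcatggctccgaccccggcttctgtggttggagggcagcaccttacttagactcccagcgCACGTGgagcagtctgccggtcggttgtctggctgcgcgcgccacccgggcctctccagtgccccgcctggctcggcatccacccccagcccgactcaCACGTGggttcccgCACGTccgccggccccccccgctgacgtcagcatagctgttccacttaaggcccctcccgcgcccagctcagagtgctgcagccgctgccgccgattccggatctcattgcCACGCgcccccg
ALDOA: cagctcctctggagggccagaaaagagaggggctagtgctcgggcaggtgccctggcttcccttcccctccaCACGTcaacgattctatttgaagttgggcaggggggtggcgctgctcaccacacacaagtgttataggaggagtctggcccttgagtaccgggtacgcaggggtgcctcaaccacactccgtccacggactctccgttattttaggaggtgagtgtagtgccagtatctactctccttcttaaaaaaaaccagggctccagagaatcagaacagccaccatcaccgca
PFKP: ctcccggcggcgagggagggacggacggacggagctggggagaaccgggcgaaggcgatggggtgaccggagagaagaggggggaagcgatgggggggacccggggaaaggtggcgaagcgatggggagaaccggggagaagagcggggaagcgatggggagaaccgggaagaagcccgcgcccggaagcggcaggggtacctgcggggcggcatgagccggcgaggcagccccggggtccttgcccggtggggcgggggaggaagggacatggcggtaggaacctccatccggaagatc

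The LDHA window held ACGTG 5 times and GCGTG 1 time, counted on both strands, where each CACGTG, an E-box, holds ACGTG on both strands and counts for both. PGK1 held ACGTG 3 times and GCGTG 1 time, ALDOA held ACGTG 1 time, and the printed window of PFKP held neither. Among the further windows of PFKP, which has several annotated starts, 1 held ACGTG 1 time and another held GCGTG 3 times. The other windows of ALDOA held ACGTG 2 times, as 1 CACGTG, and 1 time, and the other window of LDHA held GCGTG 1 time and no ACGTG. PGAM1, with a log2 ratio of 0.33, held neither in its only window. GAPDH, with -0.11, held ACGTG 2 times, and the windows of HK2, with 0.20, held it 2 and 4 times. The windows of PGAM1, GAPDH and PKM lay inside the RefSeq gene and did not cover its outermost start. Whether these letters go with the ratios was not tested. Over the members' 23 windows, ACGTG was found in 9, from 6 genes, and GCGTG in 10, from 7 genes. In all 35116 windows of the same length ACGTG was found in 21.4% and GCGTG in 36.5%. GGGCGG, the GC box, was in 14 of the members' 23 windows, against 44.95% of all windows. Each of the 10 genes had at least 1 such window, but several had more than 1 window, and no background per gene was counted. TATAAA was in none of the 23, against 11.5% of all windows. The members' windows had a median GC content of 65.3%, against 58.7% for all windows. These matches are letters only, and no binding or methylation at them was analysed here.

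The glycolytic enzymes had high FPKM in both tables from phosphofructokinase onwards, all at percentile 95.6 of the listed genes or higher. They were lower at the hexokinase step, where HK1 lay at percentiles 78.6 and 79.5 and HK2 at 69.7 and 73.8. GAPDH stood at 3865 and 3579 FPKM, PKM at 896 and 916 FPKM, and HK2 at 10.8 and 12.6 FPKM. None of the 10 differed between the tables by 2-fold on the log2(FPKM + 1) scale, in either direction. As a ratio PGK1 differed most, 142.8 against 202.7 FPKM. Together the members accounted for 1.42% and 1.45% of the FPKM summed over each table.

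**Figure D1:**
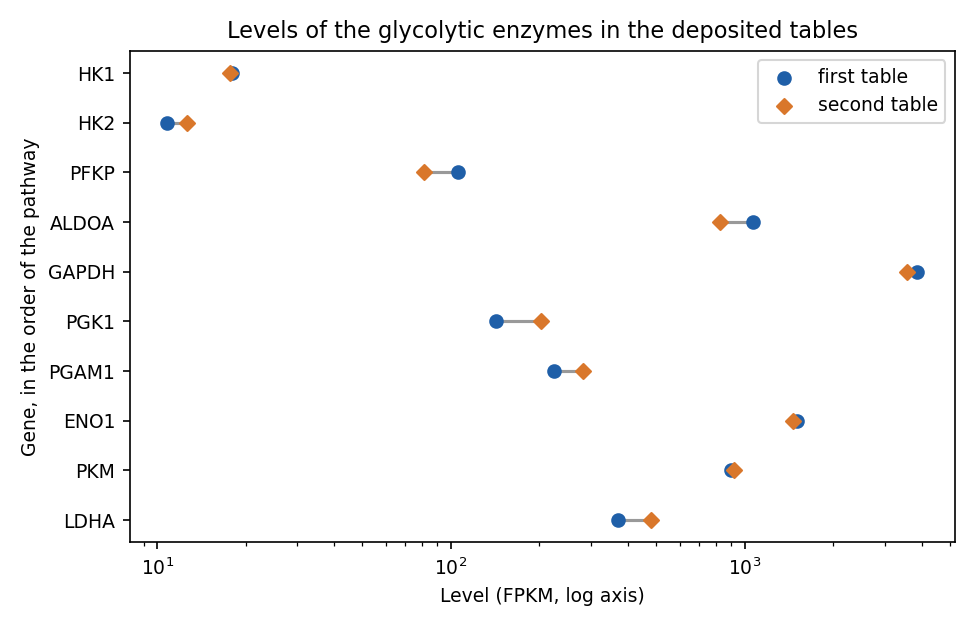
Level of each glycolytic enzyme in FPKM on a log axis, with genes in the order of the pathway; circles stand for the first table, diamonds for the second, and each point is 1 value without replicate. GAPDH is highest and HK1 and HK2 are lowest in both tables, and the widest gap between the tables is that of PGK1.

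At the entry step the members are HK1 and HK2, which phosphorylate glucose and can bind the outer mitochondrial membrane. HK1 (ENSG00000156515, chromosome 10, 69269984 to 69401882, hg38) was listed at 18.0 and 17.7 FPKM, with the first table's value given first here and below. HK2 (ENSG00000159399, chromosome 2, 74832655 to 74893359), the form often raised in tumours, was listed at 10.8 and 12.6 FPKM. HK1 thus stood above HK2 in both tables, and both were far under every later enzyme. GAPDH exceeded HK1 by 214-fold and 202-fold and HK2 by 357-fold and 284-fold in FPKM, a measure per length. In rank, HK1 was number 3250 and 3450 among the listed genes, and HK2 number 4597 and 4413.

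A hexokinase gene outside the 10 was higher than either. HKDC1, which lies next to HK1 on chromosome 10 and encodes a hexokinase of its own, was listed at 29.7 and 28.0 FPKM. It made up 50.7% and 48.0% of the summed hexokinase FPKM, against 30.8% and 30.4% for HK1 and 18.5% and 21.6% for HK2. HK3 was listed in neither table. The summed hexokinase level was 58.6 and 58.4 FPKM. The printed locus of HKDC1 did not overlap that of HK1, and no other gene was listed at either locus.

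PFKP, the platelet form of phosphofructokinase, belongs to the enzyme that controls the rate of the pathway. It was listed at 106 and 80.9 FPKM (ENSG00000067057, chromosome 10, 3066333 to 3172841). Its log2 ratio of second over first was -0.39, the lowest of the 10. Its liver counterpart PFKL was also lower in the second table, at 60.2 and 36.5 FPKM, while the muscle form PFKM was at 41.9 and 45.2 FPKM. PFKP made up 50.9% and 49.8% of the summed level of the step, PFKL 28.9% and 22.4%, and PFKM 20.1% and 27.8%. The tables therefore listed PFKL above PFKM in the first and below it in the second. The PFKP locus string was shared with PITRM1, a mitochondrial peptidase listed at 13.2 and 12.7 FPKM, and in the second table with its antisense RNA PITRM1-AS1 at 0.036 FPKM. No source used here says how fragments were divided at that locus.

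ALDOA, which splits fructose 1,6-bisphosphate, was listed at 1065 and 821 FPKM (ENSG00000149925, chromosome 16, 30053090 to 30070457), a log2 ratio of -0.37. ALDOA and PFKP, which act one after the other, were lower in the second table by nearly the same factor, so the ratio of ALDOA to PFKP was 10.04 and 10.15. ALDOA made up 98.5% and 98.8% of the aldolase level. ALDOC, the brain form, was listed at 16.6 and 10.1 FPKM.

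GAPDH, which oxidises glyceraldehyde 3-phosphate and yields NADH, was the highest of the 10 at 3865 and 3579 FPKM (ENSG00000111640, chromosome 12, 6533927 to 6538374). It ranked number 7 of all genes in the first table and number 8 in the second, and contributed 47.1% and 45.5% of the members' summed FPKM. Its log2 ratio was -0.11. At its locus an identifier named RP5-940J5.9 was also listed, at 1.43 and 2.39 FPKM. The pseudogenes named for GAPDH that were listed in either table, GAPDHP44 highest among them, did not exceed 0.891 FPKM.

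PGK1 makes the first ATP of the pathway and was the member whose ratio between the tables was furthest from 1. It was listed at 142.8 and 202.7 FPKM (ENSG00000102144, chromosome X, 78065188 to 78129296), a log2 ratio of 0.50, or 1.42-fold. PGAM1, the next enzyme, which moves the phosphate group along the molecule, was listed at 224 and 282 FPKM (ENSG00000171314, chromosome 10, 97426160 to 97433441), a log2 ratio of 0.33. Both were alone at their locus and higher in the second table under every scaling tried. PGAM1 made up 98.2% and 98.5% of the level of its step, and PGAM4 1.85% and 1.53%, while PGAM2, the muscle form, was listed in neither table.

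ENO1, which forms phosphoenolpyruvate, was second in level at 1508 and 1465 FPKM (ENSG00000074800, chromosome 1, 8861002 to 8879894), and ranked number 27 in each table. It differed little between them, with a log2 ratio of -0.04. The neuronal and muscle forms ENO2 and ENO3 were at 21.3 and 16.7 FPKM and at 31.3 and 21.9 FPKM. ENO1 therefore made up 96.6% and 97.4% of the enolase level. Its locus also held the antisense RNA ENO1-AS1, at 0.461 and 0.225 FPKM, and ENO1-IT1 at 4.47 and 0.960 FPKM. Without stated use of strand, fragments of ENO1 and its antisense partner cannot be told apart.

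PKM, whose alternative splicing gives the M1 and M2 forms of pyruvate kinase, was listed at 896 and 916 FPKM (ENSG00000067225, chromosome 15, 72199029 to 72231822). Its log2 ratio of 0.03 became -0.02 after the median over all genes was subtracted, and that of HK1, -0.02 as deposited, became 0.004 with the tables set to equal totals, so neither has a direction. A gene-level FPKM does not separate the spliced forms. PKLR, the liver and red cell form, appeared at 0.113 FPKM in the second table and was absent from the first.

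LDHA, which regenerates NAD while making lactate, was listed at 371 and 481 FPKM (ENSG00000134333, chromosome 11, 18394388 to 18408425), a log2 ratio of 0.38. LDHB, the other main subunit of the enzyme, was also higher in the second table, at 115 and 176 FPKM, a log2 ratio of 0.61. The summed level of the step was 485 and 657 FPKM. LDHA made up 76.4% and 73.2% of it, and LDHC, the testis form, was listed in neither. Of the LDHA pseudogenes LDHAP4 was highest, at 0.156 and 1.59 FPKM.

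**Figure D2:**
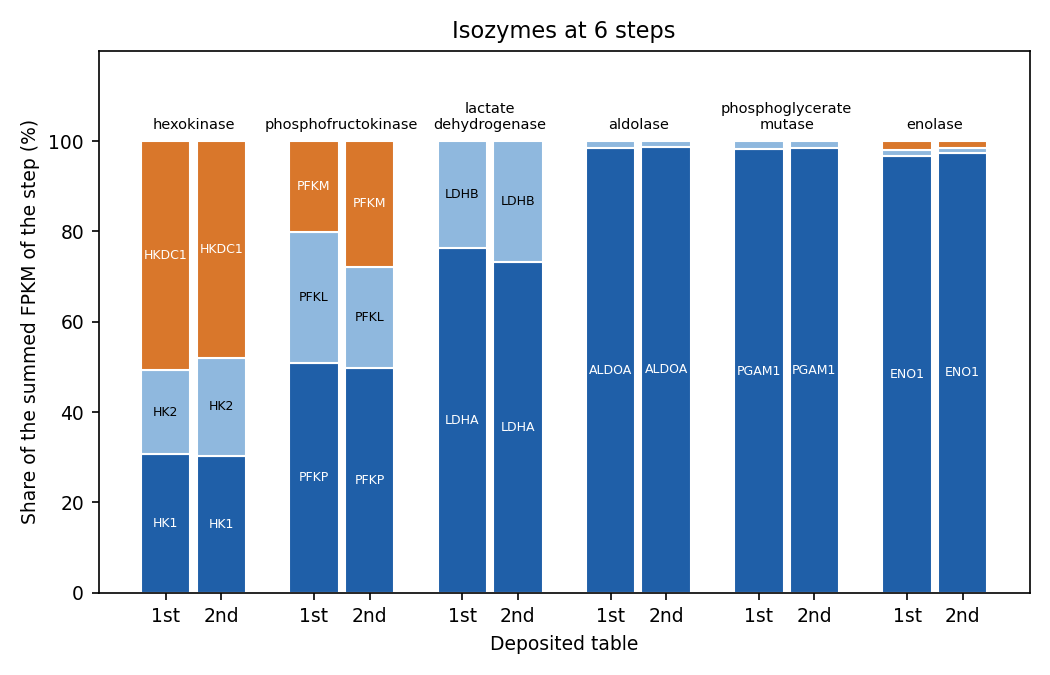
Share of each isozyme in the summed FPKM of its step, in percent, for the first and second table; each bar adds to 100 and has no replicate. HKDC1 makes up the largest part of the hexokinase bars, PFKM takes a larger part of the second phosphofructokinase bar than of the first, and ALDOA, PGAM1 and ENO1 each fill over 96% of their bars.

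The order of the levels was nearly the same in both tables. From the highest it ran GAPDH, ENO1, ALDOA, PKM, LDHA, PGAM1, PGK1, PFKP, HK1 and HK2 in the first table. In the second PKM stood above ALDOA and all other places were kept. With no replicate the spread of a level is unknown, and whether ALDOA and PKM or other neighbours differ beyond it cannot be said.

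Of the 10 genes, 5 were higher and 5 lower in the second table, with a median log2 ratio of 0.004 and a range from -0.39 to 0.50. For the 14270 shared genes the share higher in the second was 54.8% and the median 0.05. Genes with a mean of at least 100 FPKM leaned the other way, with 42.0% higher and a median of -0.07. The 7 members in that class had 4 higher and 3 lower, with a median of 0.03. Among the 11416 genes with a mean of at least 1 FPKM, 2.4% were at least 2-fold higher and 1.82% at least 2-fold lower, and among the 593 genes at 100 FPKM or more these shares were 0.506% and 0.169%. The members' count of 0 in either direction is near what these shares give for 10 genes. Set beside genes within 2-fold of its own mean level, PGK1 lay at percentile 92.5 of 520 genes, LDHA at percentile 90.1 of 202 genes and PGAM1 at percentile 84.6 of 351 genes. PFKP lay at percentile 12.6 of 1062 genes. All 10 fell inside the middle 95% of the genes of like level, which for GAPDH were only 10 genes, itself included.

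**Figure D3:**
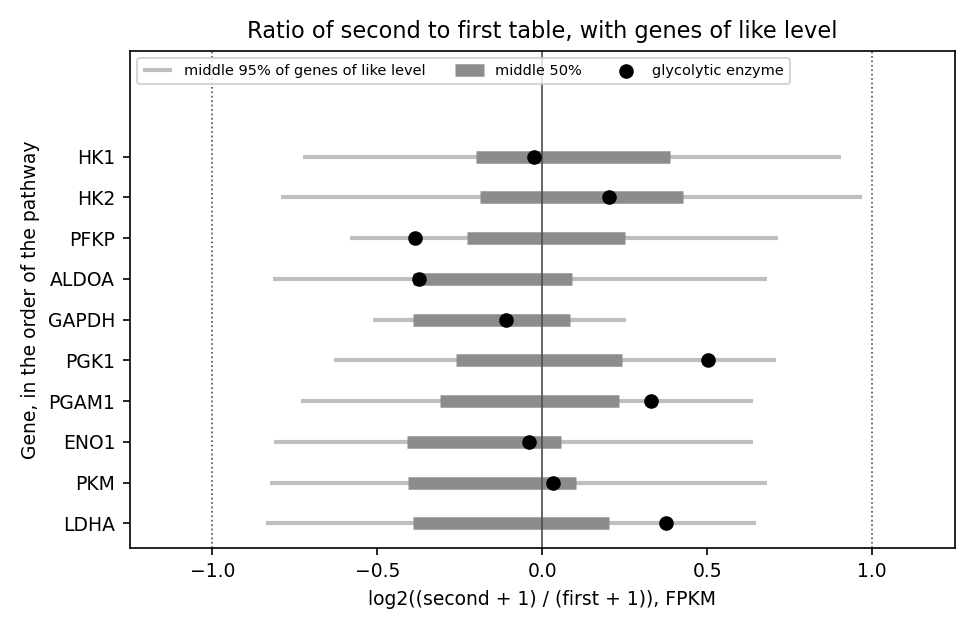
Log2 ratio of second to first table on the log2(FPKM + 1) scale for each glycolytic enzyme (black points), with the middle 95% (thin bars) and middle 50% (thick bars) of genes within 2-fold of the same mean level; dotted lines mark 2-fold. Every point lies inside its thin bar, with PGK1, PGAM1 and LDHA to the right of the thick bar and PFKP to the left.

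Ratios between members within a table do not depend on how the tables are scaled. Of the 45 pairs, 9 shifted by at least 1.5-fold between the tables and 9 by less than 1.1-fold. The pairs share members, so these counts are not of independent shifts. All pairs at 1.5-fold or more had PFKP or ALDOA as denominator, except PGK1 relative to GAPDH. Pairs of other genes were not counted, so whether such shifts are more frequent among the members was not tested. PGK1 relative to PFKP shifted most, from 1.35 to 2.51, a factor of 1.86. PGK1 relative to GAPDH, the enzyme just before it, was 3.69% and then 5.66%. LDHA relative to ALDOA went from 34.8% to 58.6%. In contrast, LDHA relative to PGAM1 was 1.65 and 1.70, and ENO1 relative to GAPDH 39.0% and 40.9%. By these numbers PGK1, PGAM1 and LDHA stood higher in the second table relative to ALDOA and PFKP, as did HK2 by 1.51-fold and 1.53-fold, while GAPDH, ENO1, PKM and HK1 lay between.

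The place of the gene in the genome moved with these ratios. Over the 11416 genes the log2 ratio had a Spearman correlation of -0.30 with local gene density, counted as the listed genes that start within 1 Mb of a gene's own start. These genes share both tables and are no independent replicates. The class with the fewest neighbours had a median of 0.26 and the class with the most -0.13. ALDOA had 96 such neighbours and GAPDH 53, against 8 for PGK1 and 19 for LDHA. Other members did not follow that order. PFKP had 3 neighbours and the lowest ratio, and HK2 had 40 and a log2 ratio of 0.20. PKM and ENO1, with 12 and 18 neighbours, had log2 ratios of 0.03 and -0.04, below PGAM1, with 25 neighbours and 0.33, while HK1 had 24 neighbours and -0.02. The part of gene density in the members' ratios was not tested.

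**Figure D4:**
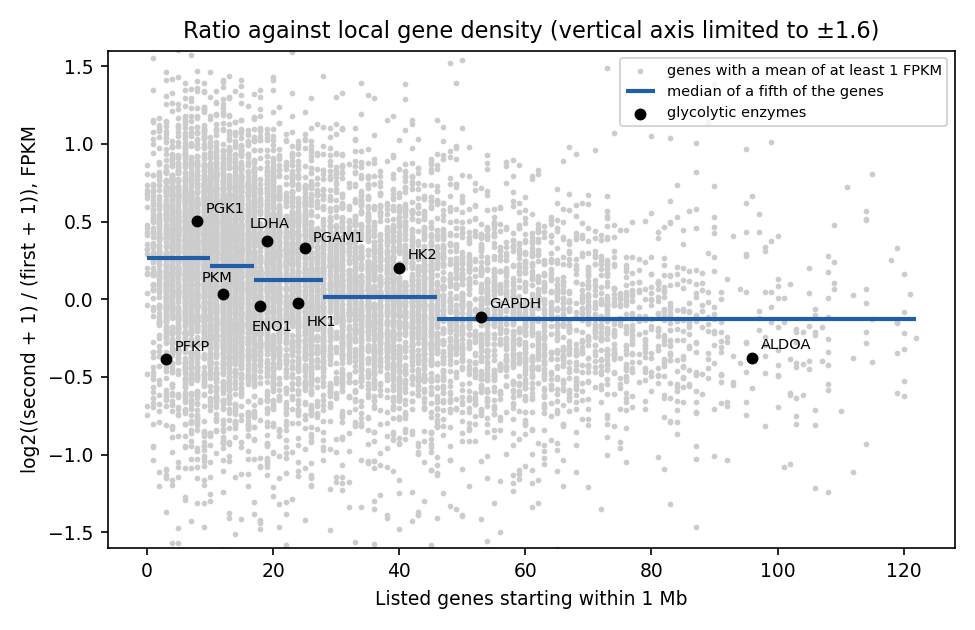
Log2 ratio of second to first table against local gene density (listed genes starting within 1 Mb), for genes with a mean of at least 1 FPKM (grey), with the median of each of 5 classes of density (blue lines) and the glycolytic enzymes (black, named). The blue medians fall from 0.26 to -0.13, with PGK1 above and PFKP below the median of their class.

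The other genes of the pathway were read from lists of related enzymes. None of the genes on these lists in both tables was 2-fold apart in either direction on the log2(FPKM + 1) scale. Among genes with a mean of at least 1 FPKM, 2.4% were at least 2-fold higher and 1.82% lower. In FPKM without the pseudocount, PDK1 and CA9 were 2.21-fold and 2.03-fold lower in the second table. SLC2A4 and LOX were 2.08-fold and 4.83-fold higher. These genes, added for this, were scarce, PDK1 having the highest mean at 4.49 FPKM. Of 21 other isozymes and steps, 12 were in both tables, 4 higher and 8 lower in the second, with a median log2 ratio of -0.16. TPI1, which interconverts the products of aldolase, was at 737 and 679 FPKM, and GPI, which follows hexokinase, at 350 and 291 FPKM. All 4 listed genes for the control of fructose 2,6-bisphosphate, the activator of phosphofructokinase, were higher in the second table, with a median of 0.31. Of all shared genes, 54.8% were higher. PFKFB3 was at 8.76 and 12.2 FPKM, PFKFB4 at 3.81 and 6.88 FPKM and PFKFB2 at 5.49 and 5.69 FPKM. TIGAR, added so that all 4 are named, was at 2.04 and 2.45 FPKM. The log2 ratio of PFKFB2, 0.04, lay under the median of all shared genes, 0.05. These values give no direction for the activator itself.

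Transport of glucose and lactate was split, with 4 of 9 genes higher and 5 lower. The glucose transporter SLC2A1 was at 66.5 and 64.7 FPKM. The lactate exporter SLC16A3 was at 270 and 210 FPKM, and its chaperone BSG at 719 and 548 FPKM. SLC16A1, a further lactate carrier, was named after its value was seen. It was at 16.5 and 32.1 FPKM, with the list's largest log2 ratio, 0.92. The carriers that export lactate thus differed in opposite directions between the tables.

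Of 14 genes that admit pyruvate to mitochondria 7 were higher and 7 lower, with a median of 0.01. PDHA1, a subunit of pyruvate dehydrogenase, was at 38.0 and 55.4 FPKM, PDHB at 21.1 and 24.3 FPKM and the carrier MPC2 at 42.0 and 41.1 FPKM. The kinases and phosphatases of the complex were named after their values were seen. PDK1 to PDK4 switch it off. PDK1 was at 6.18 and 2.79 FPKM, PDK2 at 9.90 and 5.08 FPKM, PDK4 at 3.86 and 2.49 FPKM and PDK3 at 2.74 and 3.75 FPKM, so that 3 were lower in the second table and 1 higher. Of the phosphatases that switch it on again, PDP1 was at 6.29 and 11.3 FPKM, the highest log2 ratio of the list at 0.76. PDP2 was at 8.21 and 9.69 FPKM. The remaining genes of the list lay on both sides of 0. DLD, PDHX and PDPR had log2 ratios of -0.28, -0.21 and -0.09, and MPC1 and DLAT 0.05 and 0.11. No activity of the complex was measured.

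Genes of the routes that leave glycolysis or run against it were more often lower than higher in the second table, where 45.2% of all shared genes were lower. Among those counted as lower, PGD, RPE and SHMT1, named for their small ratios, had log2 ratios of -0.02, -0.03 and -0.002. Setting the tables to equal totals scales the second by a log2 factor of 0.0298, so these genes have no direction. Of 8 gluconeogenic genes only 4 were in both tables. PCK1 was listed only in the first, at 1.06 FPKM, FBP1 only in the second, at 0.440 FPKM, and FBP2 and G6PC in neither. All 4 in both tables were lower, with a median of -0.55. Among them were G6PC3 at 89.1 and 64.8 FPKM, the transporter SLC37A4 at 55.9 and 37.3 FPKM and pyruvate carboxylase (PC) at 36.0 and 24.5 FPKM. These 4 genes had 41 to 66 neighbours within 1 Mb, in classes of density with low medians, and the part of this in their ratios was not tested. Of 8 pentose phosphate genes 6 were lower and 2 higher, with transketolase (TKT) at 264 and 208 FPKM, TALDO1 at 72.7 and 86.7 FPKM and PGD at 70.1 and 69.1 FPKM. Of 8 genes of the serine and glycerol branches 5 were lower. SHMT2 was at 183 and 128 FPKM, PHGDH, which draws off 3-phosphoglycerate, at 63.9 and 47.6 FPKM, and PSAT1, the next step, at 34.7 and 56.4 FPKM.

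Genes of the hypoxia pathway lay on both sides of 0. Of 8 genes for the hypoxia-inducible factors and their control 5 were higher, with a median of 0.06. VHL was at 25.6 and 27.4 FPKM, EGLN2 at 41.0 and 36.2 FPKM and EGLN1 at 19.2 and 27.4 FPKM. HIF1A, added after its value was seen, was at 12.4 and 12.3 FPKM. Of 15 other known targets 8 were higher and 7 lower, with a median of 0.007, and DDIT4 was at 165 and 116 FPKM, NDRG1 at 40.5 and 34.7 FPKM and ADM at 19.1 and 19.0 FPKM. The median of all genes, 0.05, is close to that of both lists.

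**Figure D5:**
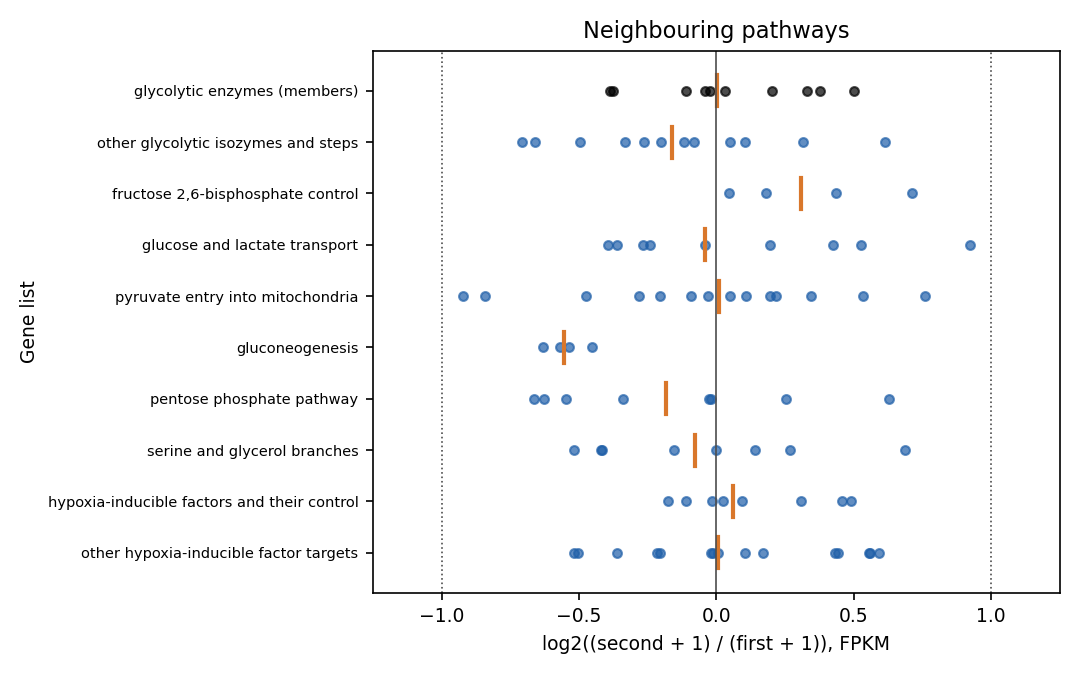
Log2 ratio of second to first table for every gene in both tables of each list (points), with the median of the list (orange bars) and 2-fold marked by dotted lines; 1 value per gene, without replicates. No point reaches 2-fold on the log2(FPKM + 1) scale, and the 4 gluconeogenic genes in both tables all lie below 0 while the glycolytic enzymes (black) lie on both sides of it.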

How the data were processed

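The labels describe 6 RNA samples of U2OS cells. The deposited FPKM values, 1 column in each of 2 tables, were made by the authors with a tool that the labels and headers used here do not name. Per the submitters' processing notes, hg38 was the build and MACS 1.4.2, BWA 0.7.13 and cutadapt 1.12 were used, with no role stated for any. Both columns name no sample and were used as tables tied to none. The planned test between labelled groups was therefore not run. Absolute depth is unknown: the smallest values, 1.9e-06 and 6.2e-06 FPKM, are far under what 1 fragment could give, so fragments had been divided fractionally.

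Ratios are log2 of second over first after adding a pseudocount of 1 FPKM to both, which understates differences of low genes. Background shares used genes with a mean of at least 1 FPKM. Listed starts were raised by 1, after which 1914 of 8394 genes alone at their locus had the RefSeq start, against 157 before. Named genes were the 10 members and, of each other list, the 3 of highest mean level and any at 2-fold, with the isozymes of each member's step for the shares; other additions are stated. Members and lists were chosen with earlier results of these data known. Calculations used Python 3.11.15, pandas 2.3.3, numpy 2.4.6 and scipy 1.17.1, with figures by matplotlib 3.10.9, and the ratio and counts were tested on simulated data.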

Additional observations from a re-analysis of the deposited data

How the results depend on the processing

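No paired analysis was possible because no replicate is named in either file, so the planned replicate block and leave-one-out settings were not run. Of 50 alternative values for single members, 48 kept their sign, but many of them could not have changed it. Another pseudocount, or none, cannot turn a sign, and summing identifiers of the same name left every member's value as it was. Only centring on the median over all genes and equal totals could turn one. The exceptions were PKM, at -0.022 after centring, and HK1, at 0.0041 with equal totals. Centring also turned the members' median from 0.004 to -0.050, so it has no direction, and among the 6 members alone at their locus, a setting chosen after seeing the data, it was 0.18. Genes higher and lower by 2-fold or more numbered 274 and 208 in the main setting, 661 and 453 with a pseudocount of 0.1, which enlarges every ratio, and 3 and 1 above a mean of 100 FPKM, where fewer genes enter. Centring gave 218 and 242, and equal totals 312 and 199, both added later. No member reached 2-fold under any setting: the largest absolute log2 ratio was 0.53. Depth is unknown, so the counting error of scarce genes cannot be given.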

Other observations

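GAPDH and PGK1 are both used as reference genes for scaling RNA measurements, and they lay on opposite sides of the median of the other genes used in that way. In a list of 12 further reference genes, written after the tables had been seen, 10 were higher in the second table and 2 lower, with a median log2 ratio of 0.30. ACTB was at 3131 and 3410 FPKM (log2 ratio 0.12), and RPLP0 at 1649 and 1717 FPKM (log2 ratio 0.06). HPRT1, at 20.4 and 42.9 FPKM, had the highest ratio of the list at 1.04, and GUSB, at 15.8 and 11.9 FPKM, the lowest at -0.38. GAPDH had -0.11 and PGK1 0.50. A gene measured relative to GAPDH would thus differ between these tables by a factor of 1.53 from the same gene measured relative to PGK1.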
